A study of Mus musculus with 12 samples.

Results

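Integrin and cadherin genes were followed in NIH3T3 cells, an immortalised mouse embryonic fibroblast line, and in clones of that line that carry a knockout of Aebp1. The members were all protein-coding genes whose symbol starts with Itga, is Itgb with a digit from 1 to 8, or is Cdh followed by digits alone. That gave 49 genes, 18 for integrin α subunits, 8 for integrin β subunits and 23 for cadherins, of 48795 genes in the deposited tables. Of these 49, 28 passed the filter on low counts and were tested, 12 had some counts but were not tested, and 9 had 0 counts in every library.

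The tested lines were F5, G5 and H7, clonal derivatives of NIH3T3 with the genotype AEBP1 KO, and they were set against the Parental line with the genotype WT. The clones were sampled at passages 7, 8 and 9 and the Parental line at passages 6, 7 and 8, with 1 library per passage and 12 in all (4 groups of 3). All cells grew in DMEM/F12 with FBS, and ribosome-depleted total RNA was sequenced. Each clone is a single clone and the Parental line is the population it came from, so the knockout and the cloning cannot be told apart in any clone. Whether the passages came from separate cultures is not stated, and the p-values therefore describe the spread among these libraries, which may be technical.

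Libraries held 22088714 to 31329755 counts. Aebp1, the targeted gene, which encodes a secreted collagen-binding protein, averaged 193 ± 19.9 CPM (counts scaled to library size) in F5, 128 ± 8.46 in G5 and 147 ± 14.4 in H7, against 553 ± 76.6 in the Parental line (SD, n = 3 each), so transcript was reduced and not absent. All 9 fibroblast markers were detected in every group, and their summed level was 12505 to 14723 CPM in F5, 11791 to 13519 in G5 and 14111 to 15448 in H7, against 15444 to 17979 in the Parental line. Col1a1, Col1a2 and Vim made up most of that sum. Dcn changed by −3.59 on the log2 scale in F5 and −4.16 in G5, and Lum by −3.71 in both (edgeR, adjusted p of at most 0.00123). In H7 neither was called, and S100a4 was higher (0.49, adjusted p = 0.0148). Epcam and 3 claudins of epithelia, Kdr of endothelium and Cd3e of T cells had 0 counts in all 12 libraries. Of the marker lists, 4 of 10 epithelial, 3 of 7 endothelial and 4 of 8 leukocyte genes were at 0 throughout. Others were detected: Krt14 reached 1.47 CPM, Pecam1 0.629, Vwf 0.551, Csf1r 3.79 and Cd68 4.90. The endothelial list summed to 0.737 to 1.49 CPM in H7, against 0.434 to 0.537 in the Parental line. The second passage of each group deviated from the others, and Parental passage 7 did so most. For that reason, calls between the Parental line and the clones that end without that library or without all second passages are named with each gene.

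Integrins are heterodimers of an α and a β chain that hold cells to the matrix and pass signals in both directions across the membrane. The α chain largely sets the ligand: α1, α2, α10 and α11 bind collagens, α3, α6 and α7 bind laminins, and α5, α8, αv and αIIb bind proteins that carry an RGD motif. Classical cadherins bind like molecules on neighbouring cells in the presence of calcium and reach the actin cytoskeleton through catenins. Fibroblasts are known for N-cadherin (Cdh2) and cadherin-11 (Cdh11), and epithelia for E-cadherin (Cdh1).

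RefSeq promoter sequences, from 250 bases before to 50 after the start on GRCm38.p6, were matched to 31 of the 49 members, with 35 promoters among them. The promoters shown belong to members on which the results turn: Itgb8 was higher in every clone, Itga9 was lower in F5 and H7, and Itgb7 and Cdh18 lie on the same chromosome and moved in opposite directions in H7. They lie at chr12:119238227-119238526 on the minus strand for Itgb8, chr9:118711442-118711741 on the plus strand for Itga9, chr15:102231886-102232185 on the minus strand for Itgb7 and chr15:23036213-23036512 on the plus strand for Cdh18. The windows for Itgb8, Itga9 and Cdh18 lie wholly inside the GENCODE gene. Capitals mark CAGGTG, an E-box read on either strand, and TGANTCA, the AP-1 motif.
Itgb8: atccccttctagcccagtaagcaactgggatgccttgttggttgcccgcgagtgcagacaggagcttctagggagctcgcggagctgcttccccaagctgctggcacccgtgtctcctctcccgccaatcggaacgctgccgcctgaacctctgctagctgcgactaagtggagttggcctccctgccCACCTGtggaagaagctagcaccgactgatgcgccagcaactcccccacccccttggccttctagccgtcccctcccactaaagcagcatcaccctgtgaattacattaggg
Itga9: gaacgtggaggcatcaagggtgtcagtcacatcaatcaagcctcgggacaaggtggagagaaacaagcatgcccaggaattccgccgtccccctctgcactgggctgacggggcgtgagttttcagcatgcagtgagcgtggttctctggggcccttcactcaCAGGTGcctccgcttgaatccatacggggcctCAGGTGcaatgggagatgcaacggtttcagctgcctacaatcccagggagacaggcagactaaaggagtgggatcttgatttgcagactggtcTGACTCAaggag
Itgb7: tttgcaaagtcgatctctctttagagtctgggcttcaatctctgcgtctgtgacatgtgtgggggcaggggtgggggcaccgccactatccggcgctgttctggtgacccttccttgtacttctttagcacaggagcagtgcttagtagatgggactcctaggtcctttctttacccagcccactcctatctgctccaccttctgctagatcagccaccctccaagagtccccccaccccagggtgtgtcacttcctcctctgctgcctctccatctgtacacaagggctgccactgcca
Cdh18: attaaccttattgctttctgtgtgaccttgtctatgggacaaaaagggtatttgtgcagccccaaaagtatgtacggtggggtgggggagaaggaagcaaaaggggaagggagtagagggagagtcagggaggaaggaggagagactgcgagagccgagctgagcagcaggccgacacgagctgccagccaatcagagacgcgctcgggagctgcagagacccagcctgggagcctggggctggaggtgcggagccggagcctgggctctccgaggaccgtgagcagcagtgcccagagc
The E-box was found in 9 of the 35 member promoters, against 20.2% of all 32851 promoters in the table. Several of the 9 are alternative promoters of a single gene, Cdh7, which had 0 counts in every library, so they are not 9 separate genes. The AP-1 motif was found in 3 of 35, against 7.81% of all, and the TEAD motif GGAATG in 5 of 35, against 14.7% of all. No motif site overlapped another in the promoters shown. Their GC content was 60.7%, 56.7%, 56.3% and 60.3%, against a median of 52.7% over all promoters. A match of letters is a description of the sequence and shows no binding.

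The lines expressed a fibroblast set of adhesion receptors led by the β1 chain. Levels were compared between genes in TPM, which is scaled to transcript length. Itgb1, the partner of most α chains of fibroblasts, averaged 260.0 ± 12.8 TPM in F5 cells, 275 ± 18.01 in G5 cells and 254 ± 18.4 in H7 cells, against 261 ± 23.3 in the Parental line (SD, n = 3 each). It made up 81.4%, 80.3% and 73.4% of the summed β-chain TPM in F5, G5 and H7, against 81.1% in the Parental line.

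After Itgb1 came Itga5, the fibronectin receptor chain, at a mean of 91.6 TPM over the 12 libraries, and Itgav, the αv chain, at 72.0 TPM. Itgb5, a partner of αv, followed at 53.0 TPM, Itga6, a laminin receptor chain, at 47.1, Cdh2 at 37.1, Cdh11 at 32.2, Itga3 at 22.6 and Itga11, a fibrillar-collagen receptor chain, at 15.0. Between 1 and 10 TPM lay Itga2b, Itgb8, Cdh24, Itgb7, Itgb3, Itga8, Itga9 and Itgb4. Neighbours in this order often overlapped over libraries: Itgb5 ranged from 36.7 to 71.9 TPM, Itga6 from 14.7 to 70.2 and Cdh2 from 11.9 to 53.2.

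**Figure D1:**
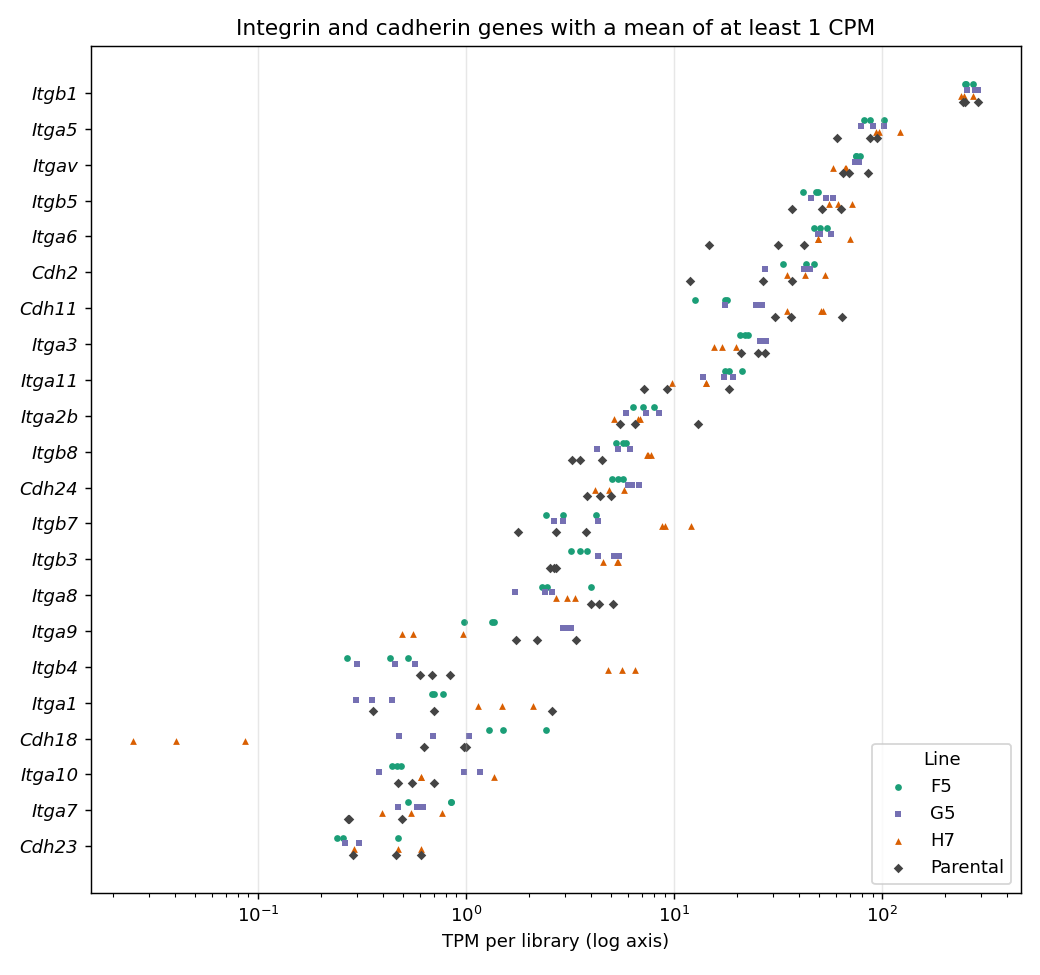
Level of each integrin or cadherin gene with a mean of at least 1 CPM, in TPM per library on a log axis; each point is a library and colours and shapes give the lines F5, G5, H7 and Parental. Itgb1 lay between 239 and 289.9 TPM in all 12 libraries, and Cdh18 in H7 lay far to the left of its level in the other lines.

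Members outside this set were scarce. The 9 genes with 0 counts in all 12 libraries were cadherins, Cdh4, Cdh6, Cdh7, Cdh8, Cdh9, Cdh10, Cdh12, Cdh13 and Cdh20; 0 counts in a group allow up to 0.0358 CPM in F5, 0.0398 in G5, 0.0386 in H7 and 0.0426 in the Parental line (3 counts over the group, counting error only). The 12 genes with counts below the filter reached at most 0.829 CPM and included the leukocyte chains Itgal, Itgam, Itgax and Itgad, the collagen receptor chain Itga2, the endothelial cadherin Cdh5 and the placental cadherin Cdh3. Of the 28 tested genes, 6 averaged under 1 CPM: Cdh1, Cdh17, Cdh19, Cdh26, Itgae and Itgb2.

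In the mean of the 3 clones, 9 of the 28 tested members were called at an adjusted p under 0.05, against 19.0% of all 14704 genes tested. Members that rose were Itga6, Itgb3, Itgb7 and Itgb8, 4 of 28 against 8.55% of all genes. Those that fell were Cdh11, Cdh18, Cdh19, Itga8 and Itga9, 5 of 28 against 10.5%. Cdh19 passed the filter only through the Parental libraries and Cdh1 only through H7, so their calls against those lines follow from the filter. The members' median size of change was 0.71 on the log2 scale, against 0.18 for all genes, and their median signed change was 0.04, against −0.02. In bulk RNA, fewer cells with a transcript and less of it per cell cannot be told apart.

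In F5, 6 of 28 members were called, against 14.3% of all genes, in G5 7 against 13.1%, and in H7 10 against 19.6%. The 3 comparisons share the Parental libraries. Itgb3 and Itgb8 were called in the same direction in every clone, 2 of 28 members, against 4.68% of all genes, and both were higher. Libraries at the first or the second place in the order of passages also deviated together between the Parental line and the clones (r from 0.38 to 0.503). At the last place r was 0.045 to 0.109. The last Parental library correlated more with the first libraries of the clones (r from 0.134 to 0.246). With place in the order of passages as a block, Cdh2, Itga6 and Itga8 joined Itgb3 and Itgb8, 5 of 28 members against 10.5% of all genes. No member was called in every clone by limma on log2(TPM + 1) or log2(TPM + 0.1), or with a block for passage number. The same held with only the 2 lines compared and without Parental passage 8. In these settings, 1.51% to 4.75% of all genes were called in every clone. At least 1 comparison between lines called 15 of 28 members, against 36.7% of all genes.

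Itgb3 encodes the β3 chain, which with αv forms a receptor for vitronectin and fibronectin. It stood at 11.2, 10.0 and 12.1 CPM in F5, 16.9, 13.6 and 15.2 in G5 and 16.8, 17.1 and 15.1 in H7, against 8.81, 8.25 and 8.26 in the Parental line. All 9 clone libraries lay above all 3 Parental libraries. F5 changed by 0.39 on the log2 scale (SE 0.11, adjusted p = 0.0314), G5 by 0.85 (SE 0.11, adjusted p = 0.000583) and H7 by 0.95 (SE 0.11, adjusted p = 0.000152). The F5 call ended without Parental passage 7 (0.38, adjusted p = 0.0642) or 8 (0.38, adjusted p = 0.0795). It also ended without F5 passage 7 (adjusted p = 0.083) or 9 (adjusted p = 0.108). By limma, with no filter, with a block for passage number and with only the 2 lines compared, it was not called either. F5 differed from H7 by −0.56 (SE 0.10, adjusted p = 0.00378).

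Itgb8 encodes the β8 chain, the αv partner that binds latent TGF-β, and its promoter is shown above with an E-box on the opposite strand. Its level was 17.8, 19.5 and 17.7 CPM in F5, 14.1, 20.1 and 16.9 in G5 and 26.2, 25.0 and 26.4 in H7, against 11.8, 13.9 and 11.7 in the Parental line. The groups did not overlap, although G5 passage 7 lay close to Parental passage 7. F5 rose by 0.56 on the log2 scale (SE 0.12, adjusted p = 0.0115), G5 by 0.45 (SE 0.12, adjusted p = 0.0337) and H7 by 1.05 (SE 0.12, adjusted p = 0.00018). The G5 call ended by limma, with only the 2 lines compared (adjusted p = 0.163) and with a block for passage number (0.13). It also ended without Parental passage 6 or 8, G5 passage 8 or 9 or H7 passage 8. The F5 call ended with the block for passage number (adjusted p = 0.0654). Both F5 (−0.50, adjusted p = 0.0138) and G5 (−0.60, adjusted p = 0.00486) were lower than H7. The F5 difference from H7 was not called by limma or without F5 passage 7 or 9 or H7 passage 9.

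Itgb4 encodes the β4 chain, which pairs with α6 in the hemidesmosomes of epithelia, and it went in opposite directions in different clones. Its level was 1.34, 0.816 and 0.849 CPM in F5, 0.601, 1.13 and 0.638 in G5 and 9.27, 10.1 and 10.9 in H7, against 1.65, 1.62 and 1.49 in the Parental line. H7 lay above, and all F5 and G5 libraries below, every Parental library. Itgb4 rose by 2.66 on the log2 scale in H7 (SE 0.23, adjusted p = 3.5e-05), or 6.34-fold. It fell by 1.02 in G5 (SE 0.26, adjusted p = 0.026), and F5 differed by −0.67 without a call (SE 0.25, adjusted p = 0.101). The mean of the clones therefore gave 0.32 and no call (adjusted p = 0.3). The G5 call ended by limma on log2(TPM + 1) (adjusted p = 0.231) and on log2(TPM + 0.1) (0.166). With only the 2 lines compared (adjusted p = 0.125) and with a block for passage number (0.106) it ended too. It also ended without Parental passage 6 (adjusted p = 0.052) and without G5 passage 7 (0.107) or 9 (0.0958). Itga6, the partner of Itgb4, is described with the α chains.

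Itgb7 encodes the β7 chain, which pairs with α4 and αE on lymphocytes. It stood at 3.56, 6.12 and 4.28 CPM in F5, 3.82, 6.30 and 3.99 in G5 and 17.6, 13.0 and 13.8 in H7, against 4.07, 2.57 and 5.36 in the Parental line. All H7 libraries lay above all others, while F5 and G5 overlapped the Parental line. The log2 fold change in H7 was 1.89 (SE 0.29, adjusted p = 0.00115), and the call in the mean of the clones (0.78, adjusted p = 0.0486) ended without Parental passage 7 (0.54, adjusted p = 0.167) and without all second passages (0.40, adjusted p = 0.138). Of its partners' genes, Itga4 had 0, 1 and 1 counts in F5, G5 and H7 and 0 in the Parental line, and Itgae reached at most 1.22 CPM in any library. The T-cell marker Cd3e was at 0 in every library, and the 8 leukocyte markers summed to 6.29 to 7.20 CPM in H7, against 4.74 to 6.55 in the Parental line.

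The other β chains were not called between a clone and the Parental line. Itgb1 differed by −0.02 in F5, 0.02 in G5 and −0.04 in H7 on the log2 scale (SE 0.08 each). Itgb5 encodes the β5 chain of a vitronectin receptor and averaged 77.5 ± 6.57 CPM in F5 cells, 86.0 ± 11.4 in G5 cells and 108 ± 15.0 in H7 cells, against 85.8 ± 20.6 in the Parental line (SD, n = 3 each). With the block for place in the order of passages, Itgb5 was called higher in H7 (0.35, adjusted p = 0.0067). The gene lies on chromosome 16, whose median log2 fold change in H7 was 0.22 over 425 tested genes without the block. Itgb2, the leukocyte chain, had 80, 80 and 43 counts in F5, G5 and H7, against 32 in the Parental line, and its largest log2 fold change was 1.31 in G5 (SE 0.84, adjusted p = 0.348). Itgb6, an epithelial partner of αv, had 2 counts in G5 and 0 in the other lines.

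**Figure D2:**
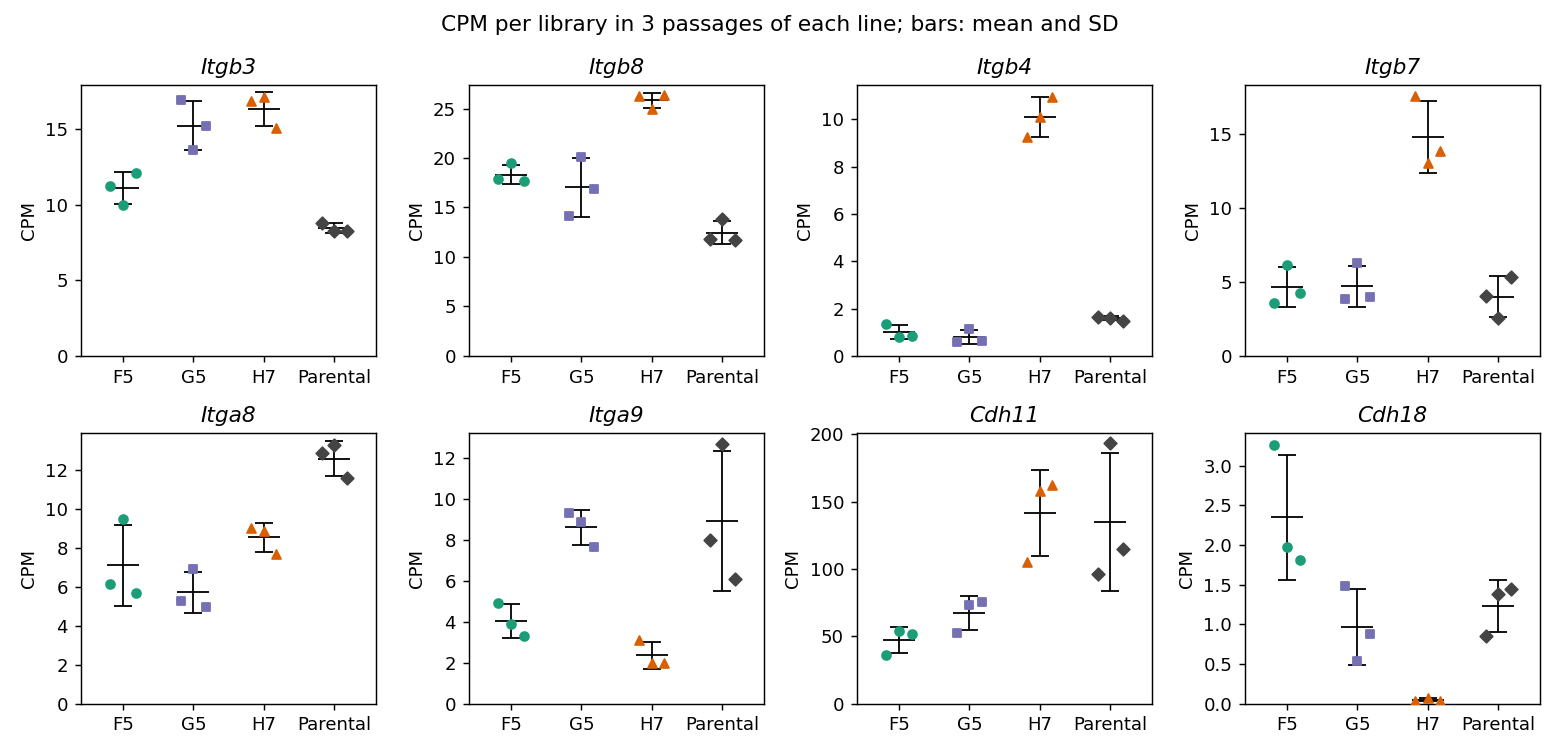
CPM per library for 8 members called in at least 1 line, in 3 passages of F5, G5, H7 and the Parental line; points are libraries and bars the mean and SD (n = 3). Itgb3 and Itgb8 were higher in every clone library than in any Parental library, Itgb4 and Itgb7 stood apart in H7, and Cdh18 was close to 0 in H7.

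Among the laminin-binding α chains, 1 of 3 was called higher in the mean of the clones, against 8.55% of all genes. Itga6 stood at 89.1, 83.6 and 94.4 CPM in F5, 89.0, 85.6 and 94.8 in G5 and 124, 91.1 and 90.5 in H7, against 73.5, 25.0 and 58.5 in the Parental line. The groups did not overlap, and Parental passage 7 was the lowest library. The log2 fold change was 0.84 in the mean of the clones (SE 0.25, adjusted p = 0.0362) and 0.96 in H7 (SE 0.29, adjusted p = 0.0378), while F5 at 0.77 and G5 at 0.78 were not called (adjusted p = 0.102 each). Both were called with the block for place in the order of passages (adjusted p = 0.0218 in F5 and 0.022 in G5) and by DESeq2 (adjusted p = 0.0456 in F5 and 0.0438 in G5). Without Parental passage 7 the change in the mean fell to 0.50 and stayed called (adjusted p = 0.0224). The mean lost its call when Parental passage 8 or any of 7 clone libraries was left out, with an adjusted p of at most 0.0688. The H7 call ended with only the 2 lines compared (adjusted p = 0.141) and without Parental passage 8 (0.0631). It also ended without any single library of H7 or F5 (adjusted p of at most 0.138) and without G5 passage 8 or 9.

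Itga3, the laminin receptor chain of many epithelia and of fibroblasts, stood at 49.9, 43.5 and 37.8 CPM in H7, against 66.3, 48.4 and 68.8 in the Parental line. The lines overlapped through Parental passage 7. Itga3 fell by 0.48 on the log2 scale in H7 (SE 0.13, adjusted p = 0.025) and was higher in G5 than in H7 by 0.54 (SE 0.13, adjusted p = 0.0155). The F5 and G5 libraries lay between 49.9 and 66.0 CPM and were not called against the Parental line. Leaving out Parental passage 6 or 8 ended the H7 call (−0.42, adjusted p = 0.0711, and −0.39, adjusted p = 0.0863). Leaving out H7 passage 8 or 9 also ended it (−0.48, adjusted p = 0.0791, and −0.39, adjusted p = 0.101). The call between G5 and H7 ended without G5 passage 7 or 8 or H7 passage 8 or 9 (adjusted p from 0.0531 to 0.0665).

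Itga7, the laminin receptor chain of muscle, was low, at 1.88, 1.85 and 1.16 CPM in F5, against 1.12, 0.592 and 0.615 in the Parental line. F5 lay above the Parental line in each library. Its log2 fold change of 1.08 in F5 (SE 0.32, adjusted p = 0.0479) lost its call in 14 of 21 alternatives, with an adjusted p of 0.122 without Parental passage 7 and 0.272 without all second passages. In G5 and H7 it changed by 0.62 and 0.71 and was not called.

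Of the RGD-binding α chains, Itga8 fell and the other tested members were not called between lines. Itga8 encodes the mesenchymal α8 chain, whose partner is β1 and whose known ligands include nephronectin. It stood at 6.17, 9.48 and 5.67 CPM in F5, 5.27, 6.94 and 4.94 in G5 and 9.04, 8.88 and 7.71 in H7, against 12.9, 13.3 and 11.6 in the Parental line. Every clone library was below every Parental library. The mean of the clones differed by −0.84 on the log2 scale (SE 0.15, adjusted p = 0.00295). F5 changed by −0.82 (SE 0.19, adjusted p = 0.016) and G5 by −1.14 (SE 0.19, adjusted p = 0.00338), while the H7 difference of −0.56 was not called (SE 0.19, adjusted p = 0.0605). That difference was called by DESeq2 (adjusted p = 0.0349), with only the 2 lines compared (0.0307), without all second passages (0.0249) and with the block for place in the order of passages (0.00641). The F5 call ended by limma on log2(TPM + 1) (adjusted p = 0.0758) and on log2(TPM + 0.1) (0.0872). It also ended with only the 2 lines compared (adjusted p = 0.0748) and without F5 passage 7 (0.0695) or 9 (0.0657). A predicted gene on the same strand, Gm37701, overlaps Itga8 and reached 13.5 CPM, and reads shared by overlapping genes may have been split between them.

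The gene of the nephronectin ligand, Npnt, also fell in each clone. It averaged 13.8 ± 1.49 CPM in F5 cells, 14.8 ± 0.986 in G5 cells and 16.9 ± 2.77 in H7 cells, against 63.1 ± 14.1 in the Parental line (SD, n = 3 each), a log2 fold change of −2.06 in the mean of the clones (SE 0.12, adjusted p = 4.73e-06). A link between the levels of Itga8 and Npnt was not tested.

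Itga5, with the largest α-chain level, averaged 217 ± 25.5 CPM in F5 cells, 211 ± 27.7 in G5 cells and 253 ± 31.9 in H7 cells, against 198 ± 47.3 in the Parental line (SD, n = 3 each). Its log2 fold change of 0.36 in H7 was not called (SE 0.17, adjusted p = 0.181), but was with the block for place in the order of passages (0.37, adjusted p = 0.0119). The gene lies on chromosome 15, whose median log2 fold change in H7 was higher, at 0.45 over 534 tested genes. Itgav changed by 0.03, 0.10 and −0.08 in F5, G5 and H7 (SE 0.08 each). Itga2b, the platelet fibrinogen receptor chain, stood between 4.39 and 9.59 CPM in all libraries, and its log2 fold changes lay between −0.22 in H7 and 0.14 in F5 (SE 0.24 each).

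Itga9 encodes the α9 chain, a β1 partner that binds tenascin-C and VCAM1, and it differed among the clones. It stood at 4.90, 3.89 and 3.28 CPM in F5, 9.30, 8.84 and 7.65 in G5 and 3.10, 1.99 and 1.97 in H7, against 8.01, 12.7 and 6.06 in the Parental line. F5 and H7 lay below every Parental library, and G5 lay within the Parental range. On the log2 scale, the difference from the Parental line was −1.15 in F5 (SE 0.27, adjusted p = 0.0167), −0.05 in G5 (SE 0.26, adjusted p = 0.926) and −1.92 in H7 (SE 0.28, adjusted p = 0.00082). G5 was higher than H7 by 1.87 (SE 0.28, adjusted p = 0.000973). The difference between F5 and G5 of −1.09 had an adjusted p of 0.263 by edgeR and 0.0221 by DESeq2.

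Without all second passages, Itga9 lost its call in F5 (−0.78, adjusted p = 0.105) and in the mean of the clones (−0.66, adjusted p = 0.0787, against −1.04 with all libraries). In H7 the change was −1.46 and called (adjusted p = 0.0106). An antisense gene within Itga9, Gm2415, reached 1.86 CPM, close to the 1.97 CPM of Itga9 in H7, and the use of strand in counting is not given.

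The collagen-binding chains were not called between a clone and the Parental line with all libraries and no block, but Itga1 and Itga11 were in some alternatives. Itga1, whose product favours collagen IV, stood at 2.26, 2.51 and 2.31 CPM in F5, 0.955, 1.45 and 1.08 in G5 and 3.70, 7.00 and 5.07 in H7, against 1.21, 8.37 and 2.37 in the Parental line. Parental passage 7 was the highest library and the Parental range spanned those of F5 and H7. G5 was lower than H7, with a difference of −2.19 on the log2 scale (SE 0.57, adjusted p = 0.0222). That call ended without G5 passage 7 (adjusted p = 0.0808) or 9 (0.0764) and without H7 passage 8 (0.0734) or 9 (0.0526). In G5, Itga1 was called lower than in the Parental line by DESeq2 (−1.78, adjusted p = 0.0114), with no filter on low counts (adjusted p = 0.0483) and with a block for passage number (−2.18, adjusted p = 0.0421) or place in the order of passages (−1.59, adjusted p = 0.0182). Without all second passages it was called higher in H7 (1.30, adjusted p = 0.0238). Pelo, a gene inside Itga1 on the same strand, reached 15.7 CPM.

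Itga11 averaged 51.3 ± 5.15 CPM in F5 cells, 44.3 ± 6.50 in G5 cells and 35.0 ± 8.23 in H7 cells, against 31.6 ± 15.1 in the Parental line (SD, n = 3 each). Its log2 fold change of 0.70 in F5 was not called (SE 0.28, adjusted p = 0.125). Without all second passages Itga11 was called higher in F5 (1.07, adjusted p = 0.0206), G5 (0.90, adjusted p = 0.0396) and the mean of the clones (0.83, adjusted p = 0.0237). With the block for place in the order of passages it was called in F5 (adjusted p = 0.0112) and the mean (adjusted p = 0.0311). Itga10, the collagen receptor chain of chondrocytes, lay between 0.964 and 3.42 CPM.

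The cadherins of these cells were mostly Cdh2 and Cdh11. Their ratio in TPM, Cdh2 over Cdh11, was 3.71, 1.86 and 2.46 in F5, 2.58, 1.09 and 1.59 in G5 and 1.51, 0.677 and 0.839 in H7, against 1.22, 0.185 and 0.732 in the Parental line. In each group the second passage had the lowest ratio, the G5 and H7 ranges overlapped that of the Parental line, and the ratio was not tested. Summed over the family, cadherins reached 65.6 ± 5.30 TPM in F5 cells, 69.2 ± 8.17 in G5 cells and 96.1 ± 3.12 in H7 cells, against 76.6 ± 6.86 in the Parental line (SD, n = 3 each).

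Cdh11, the type II cadherin of mesenchyme and osteoblasts, stood at 36.2, 54.1 and 51.8 CPM in F5, 52.6, 73.1 and 75.7 in G5 and 105, 158 and 162 in H7, against 96.1, 193 and 115 in the Parental line. F5 and G5 lay below every Parental library, and H7 lay within the Parental range. On the log2 scale, the difference from the Parental line was −1.51 in F5 (SE 0.27, adjusted p = 0.00458), −1.01 in G5 (SE 0.27, adjusted p = 0.0321) and 0.07 in H7 (SE 0.27, adjusted p = 0.889). Both F5 (−1.58, adjusted p = 0.00244) and G5 (−1.08, adjusted p = 0.018) were lower than H7. The call between G5 and H7 ended without G5 passage 7 (adjusted p = 0.0714) and without H7 passage 8 (0.0573) or 9 (0.0689). Against the Parental line, the G5 call ended in 8 of 21 alternatives. Among these were limma on log2(TPM + 1) (adjusted p = 0.0587) and log2(TPM + 0.1) (0.057), and only the 2 lines compared (0.1). Leaving out any single G5 library also ended it (adjusted p from 0.0638 to 0.121).

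Parental passage 7 held the highest Cdh11 level. Without it the F5 change was −1.16 and called (adjusted p = 0.00731), and the G5 change was −0.66 and not called (adjusted p = 0.0852). The change in the mean of the clones was −0.82 with all libraries (adjusted p = 0.02) and −0.46 without that library (adjusted p = 0.127). Without all second passages it was −0.55 in the mean (adjusted p = 0.108) and −0.72 in G5 (adjusted p = 0.114), neither called, while F5 was called at −1.26 (adjusted p = 0.0195). The summed fibroblast markers were also lower in F5 and G5 than in any Parental library, as were Dcn and Lum singly. The part of these markers in the Cdh11 result was not tested.

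Cdh2, N-cadherin, stood at 111, 75.9 and 102 CPM in F5, 101, 61.9 and 89.2 in G5 and 122, 81.8 and 103 in H7, against 89.5, 27.2 and 63.8 in the Parental line. Every group had its lowest value in the second passage, and clone and Parental libraries overlapped. The log2 fold change in the mean of the clones was 0.64 and not called (SE 0.29, adjusted p = 0.156). With a block for the place of each library in the order of passages, Cdh2 was called higher in the mean of the clones (0.73, adjusted p = 0.00435) and in each clone (adjusted p = 0.00918 in F5, 0.0399 in G5 and 0.00421 in H7).

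**Figure D3:**
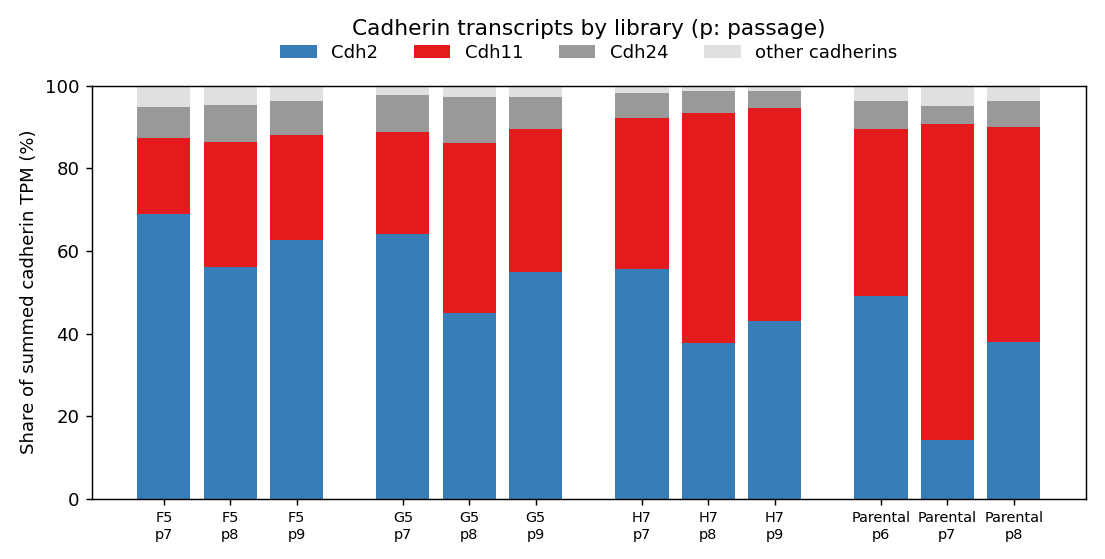
Share of the summed cadherin TPM taken by Cdh2, Cdh11, Cdh24 and the other cadherins together, in percent, in each library of F5, G5, H7 and the Parental line, with its passage. Cdh2 took between 45.0% and 68.8% in F5 and G5 libraries, and Cdh11 took 76.4% in Parental passage 7.

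Cdh18, a type II cadherin best known from neurons, was nearly absent from H7. It had 195, 76 and 4 counts in F5, G5 and H7, against 87 in the Parental line. Per library this was 3.26, 1.98 and 1.81 CPM in F5, 1.48, 0.544 and 0.877 in G5 and 0.0398, 0.0737 and 0.0393 in H7, against 0.85, 1.38 and 1.45 in the Parental line. All H7 libraries lay below all others. The fall in H7 was −4.45 on the log2 scale (SE 0.57, adjusted p = 0.000379), and the difference from H7 was 5.38 in F5 (SE 0.54, adjusted p = 9.13e-05) and 4.13 in G5 (SE 0.58, adjusted p = 0.000645).

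The call of Cdh18 in the mean of the clones (−1.28, adjusted p = 0.0237) rested on H7, and it ended without Parental passage 7 (−1.19, adjusted p = 0.0798) and without all second passages (−1.17, adjusted p = 0.117). Neural and glial markers, mostly Snap25, summed to 4.67 to 5.59 CPM in F5, 4.07 to 5.62 in G5 and 19.4 to 20.5 in H7, against 13.1 to 16.9 in the Parental line. F5, with low sums of these markers, had the highest Cdh18 level, and their part in the Cdh18 result was not tested.

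Cdh19, a type II cadherin of Schwann cell precursors, had 33, 1 and 6 counts in F5, G5 and H7, against 73 in the Parental line. Parental libraries held 37, 27 and 9 counts, and F5 libraries 6, 19 and 8, so these overlapped. Relative to the Parental line, the ratio of normalised counts was 0.380 in F5 (95% counting interval 0.244 to 0.580), 0.0128 in G5 (0.00032 to 0.0736) and 0.0745 in H7 (0.0265 to 0.170). Cdh19 passed the filter only through the Parental libraries, so its calls in G5, H7 and the mean of the clones follow from that and are not given as support.

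Cdh22, a type II cadherin of brain, fell short of the filter with 3, 4 and 5 counts in F5, G5 and H7, against 45 in the Parental line. All Parental libraries lay above all clone libraries. With no filter, edgeR called it lower in F5 (adjusted p = 0.00432), G5 (adjusted p = 0.00905) and H7 (adjusted p = 0.00817). Cdh24, the remaining type II member above 1 CPM, averaged 8.02 ± 0.475 CPM in F5 cells, 9.23 ± 0.891 in G5 cells and 7.46 ± 0.995 in H7 cells, against 6.70 ± 1.01 in the Parental line (SD, n = 3 each), and its log2 fold change in G5 was 0.46 (SE 0.14, adjusted p = 0.0522; 0.0247 by DESeq2 and 0.0272 with the block for place in the order of passages).

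Cdh1, E-cadherin, was found almost entirely in H7, with 4, 3 and 57 counts in F5, G5 and H7, against 1 in the Parental line. Each H7 library held 14 to 22 counts, while no other library held more than 3. The ratio of normalised counts between H7 and the Parental line was 51.7, with a 95% counting interval of 8.91 to 2077. Cdh1 passed the filter only through H7, so its calls against H7 follow from that and are not given as support. The level in H7 was at most 0.876 CPM.

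The epithelial marker list overlapped between H7 and the Parental line. Its 10 genes summed to 0.81 to 1.23 CPM in H7, against 0.671 to 1.23 in the Parental line, with Epcam, Cldn3, Cldn4 and Cldn7 at 0 throughout. Among repressors that bind the E-box of cadherin promoters, 1 of 6 tested was higher and 2 were lower in the mean of the clones, against 8.55% and 10.5% of all genes: Snai2 (0.47, SE 0.11, adjusted p = 0.0116), Twist2 (−0.34, SE 0.09, adjusted p = 0.0216) and Zeb1 (−0.22, SE 0.05, adjusted p = 0.0102). Zeb1 averaged 108 ± 4.09 CPM in F5 cells, 103 ± 2.56 in G5 cells and 135 ± 5.59 in H7 cells, against 134 ± 6.09 in the Parental line (SD, n = 3 each).

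Cdh23, a long cadherin of hair-cell tip links, was called lower in G5 (−0.97, SE 0.28, adjusted p = 0.0443), where it stood at 0.848, 0.771 and 0.797 CPM, against 1.12, 2.25 and 1.36 in the Parental line. All G5 libraries lay below all Parental libraries. Without Parental passage 7 the change was −0.62 and not called (adjusted p = 0.148), without all second passages it was −0.59 and not called (adjusted p = 0.233), and the call ended in 14 of 21 alternatives. Vsir, on the opposite strand within Cdh23, reached 0.71 CPM. Cdh17 and Cdh26, cadherins of epithelia, were not called in any line, though Cdh26 was lower in H7 with the block for place in the order of passages (−2.28, adjusted p = 0.0121). Cdh26 had 36, 27 and 17 counts in F5, G5 and H7, against 77 in the Parental line, 49 of them in 1 library.

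**Figure D4:**
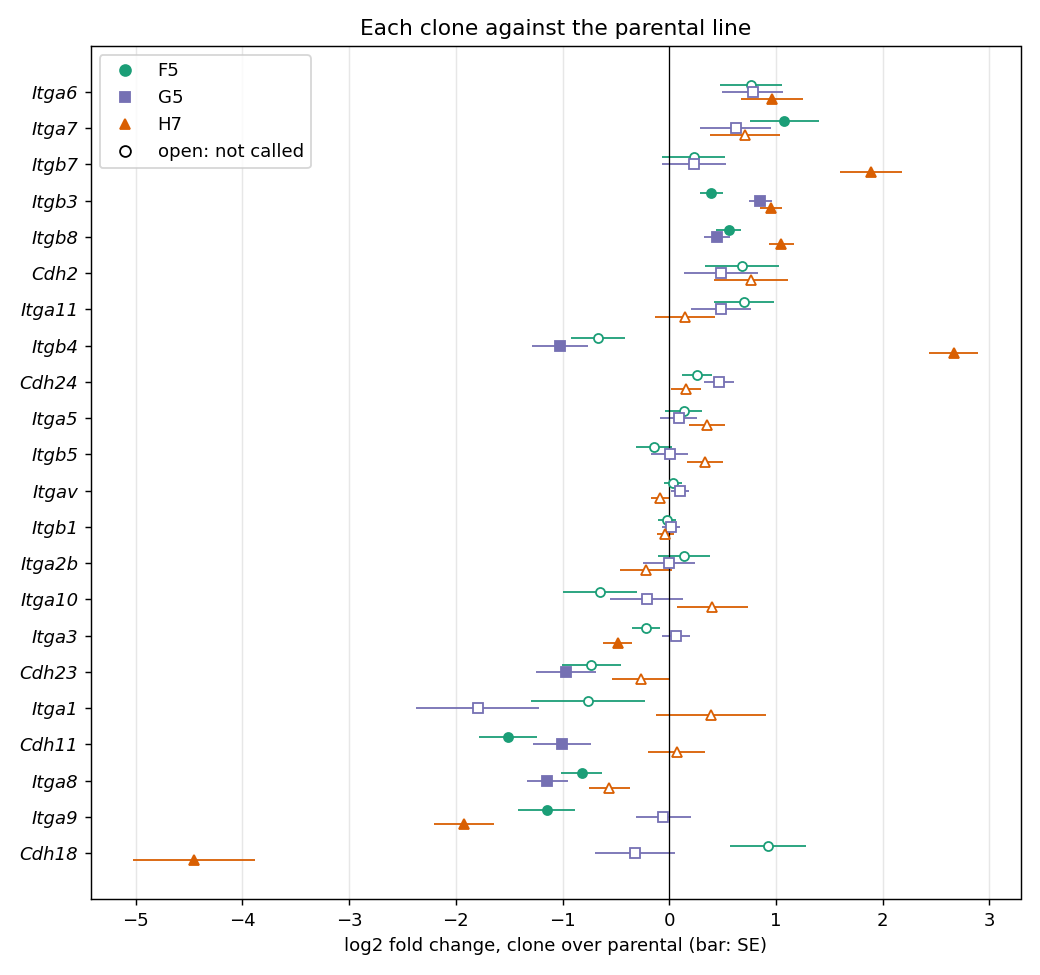
Log2 fold change of each clone over the Parental line for the 22 members with a mean of at least 1 CPM; bars are SE, filled symbols are called at an adjusted p under 0.05 and open symbols are not. H7 lies apart for Cdh18 (−4.45), Itgb4 (2.66) and Itgb7 (1.89), F5 and G5 lie apart from H7 for Cdh11, and Itgb1 and Itgav lie near 0 in every clone.

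The clones were compared directly. F5 and G5 differed in 0 of 28 members by edgeR, against 0.258% of all genes, with 4 members at an unadjusted p under 0.05 (Cdh18, Cdh19, Itga9 and Itgb3), against 4.99% of all genes, and 2 called by DESeq2 (Itgb3 and Itga9). F5 and H7 differed in 7 members, against 17.9% of all genes, and G5 and H7 in 9, against 17.4%. Cdh1, Cdh11, Cdh18, Itgb4, Itgb7 and Itgb8 were called in both in the same direction, 6 of 28 members against 13.3% of all genes. Cdh1 is counted here although it was tested only through its counts in H7, and these comparisons share the H7 libraries. Cdh18 was higher and the other 5 were lower in F5 and G5 than in H7.

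Libraries of the clones with the same passage number deviated together. With passage number as a block, F5 and H7 also differed in Itga9 (0.79, adjusted p = 0.0293) and Itgb5 (−0.48, adjusted p = 0.03), and G5 and H7 in Itga8 (−0.59, adjusted p = 0.046). No call between clones was lost with that block.

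Outside chromosome 15, the chromosomes of the members had medians of −0.21 to 0.25 in the clones. For scale, the median size of change of all genes in H7 was 0.21. In H7 the median was 0.22 on chromosome 16, which holds Itgb5, and 0.25 on chromosome 18, which holds Cdh2. With the block for place in the order of passages, Itgb5 changed by 0.35 in H7 and Cdh2 by 0.86. The medians are from the fit without that block. On chromosome 15, the median log2 fold change in H7 was 0.45 over 534 tested genes. Less that median, the change in H7 was 1.45 for Itgb7 and −4.90 for Cdh18. Itga5 lies on the same chromosome, and its change in H7, given above, was smaller than that median. The 10 nearest tested genes around Itgb7 had a median of 0.57 in H7, with a range of 0.31 to 2.03, and those around Cdh18 a median of 0.35, with a range of −0.44 to 0.54. Around Itgb4, on chromosome 11, the 10 neighbours lay between −0.27 and 0.67 in H7, below its 2.66. The part of gene copy number in these values was not tested.

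Several members differed between passages. Between the second and the outer passages, 9 of 28 members were called, against 27.6% of all genes. The second passages were already known to deviate alike when this comparison was chosen. Its calls and the share of all genes are therefore not independent of that choice. Cdh2 fell by 0.73 on the log2 scale in the second passages (SE 0.15, adjusted p = 0.00672), and Itga5 fell by 0.31 (SE 0.09, adjusted p = 0.0302). Itgb5 rose by 0.29 (SE 0.09, adjusted p = 0.03), Itga2b by 0.43 (SE 0.13, adjusted p = 0.0267), Itga8 by 0.33 (SE 0.10, adjusted p = 0.0337), Itga10 by 0.60 (SE 0.18, adjusted p = 0.0322) and Itga1 by 0.96 (SE 0.29, adjusted p = 0.0311). Itgae and Itgb2, both under 1 CPM on average, also rose.

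The count was lower without Parental passage 7, when 2 members were called, Cdh2 (−0.52, adjusted p = 0.00916) and Itga8 (0.40, adjusted p = 0.0358), against 15.4% of all genes. Leaving out G5 passage 8 likewise gave 2 calls, against 16.3% of all genes. Cdh11 was highest at the second passage in F5 and the Parental line and slightly lower than at the last passage in G5 and H7, and its change of 0.41 was not called (adjusted p = 0.0705).

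**Figure D5:**
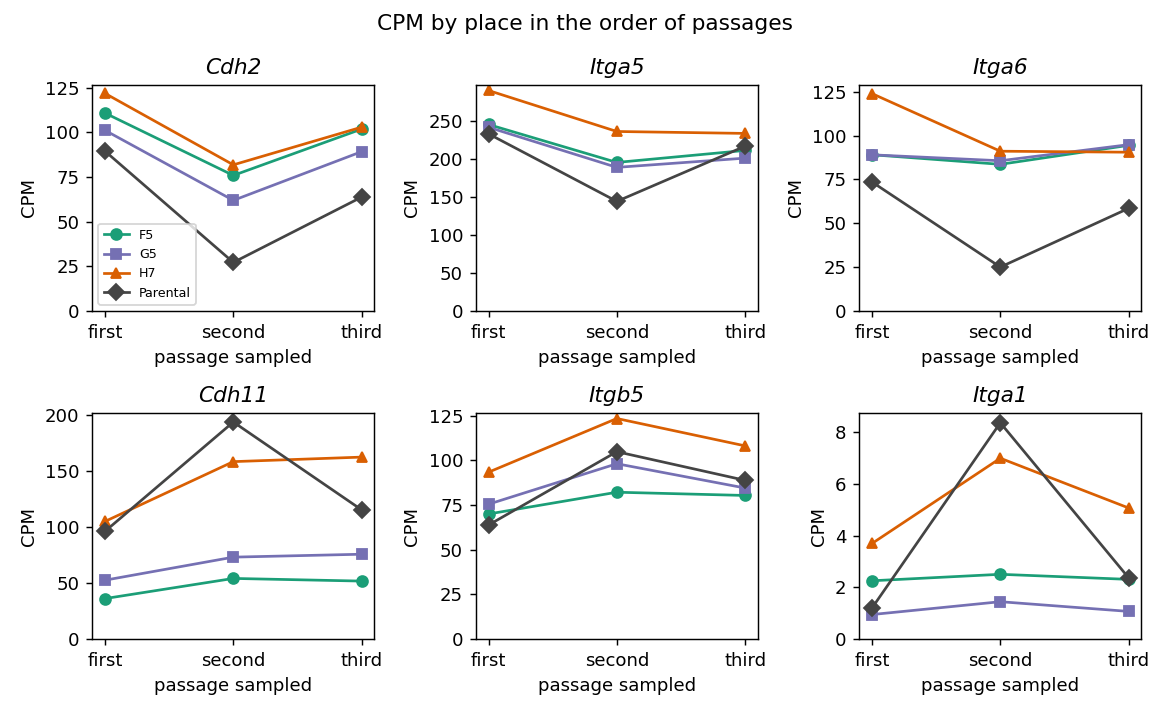
CPM of Cdh2, Itga5, Itga6, Cdh11, Itgb5 and Itga1 at the first, second and last passage sampled, with a line for each of F5, G5, H7 and the Parental line. Cdh2 was lowest at the second passage in all 4 lines, and Parental passage 7 held the lowest Itga6 (25.0 CPM) and the highest Itga1 (8.37 CPM) of its line.

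The partners of these receptors were counted from lists. Of 26 tested integrin ligands, 11 were lower in the mean of the clones, against 10.5% of all genes, and the list's median log2 fold change was −0.32, against −0.02 for all genes. Those with the smallest adjusted p were Npnt, given above, the collagen VI chains Col6a1 (−0.81, SE 0.08, adjusted p = 7.08e-05) and Col6a2 (−0.79, SE 0.08, adjusted p = 7.3e-05), and Vcam1 (−0.71, SE 0.12, adjusted p = 0.00266), a ligand of α4 and α9 integrins. Tnc, another ligand of α9, was also among the 11. In single clones, 9 ligands fell in F5, against 7.37% of all genes, 8 in G5, against 6.56%, and 6 in H7, against 9.92%.

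Of 31 tested integrin activators and adhesion-site proteins, the mean of the clones was higher for 7 and lower for 3, against 8.55% and 10.5% of all genes, with a list median of 0.12. Src (0.34, SE 0.06, adjusted p = 0.00295) and Fyn (0.53, SE 0.12, adjusted p = 0.00934), kinases that act at adhesion sites, and the tetraspanin Cd81 (0.26, SE 0.06, adjusted p = 0.00814) rose. Zyx, the zyxin of mature adhesions, fell (−0.44, SE 0.07, adjusted p = 0.0019). Talin 1 (Tln1), which activates integrins, was among the 3 that fell, and Ptk2, the focal adhesion kinase, among the 7 that rose.

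Of 10 tested catenins and junction partners, 2 rose in the mean of the clones, against 8.55% of all genes: the nectin Nectin3 (0.65, SE 0.10, adjusted p = 0.00118) and its cytoplasmic partner Afdn (0.30, SE 0.06, adjusted p = 0.0072). Ctnna1 (0.15, adjusted p = 0.12) and Ctnnd1 (−0.32, adjusted p = 0.0525) were not called. Of 13 other members of the cadherin superfamily, 2 rose and 4 fell, against 8.55% and 10.5% of all genes. Pcdh7 fell (−0.69, SE 0.09, adjusted p = 0.000522), as did Pcdh1 (−0.40, SE 0.06, adjusted p = 0.000995) and Celsr3 (−2.28, SE 0.40, adjusted p = 0.00294), while Pcdh19 rose (0.35, SE 0.07, adjusted p = 0.00416).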

How the data were processed

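RNA was measured in 12 libraries of 4 lines, 3 passages each. The authors deposited estimated counts per Ensembl gene, not normalised, and a table of TPM for the same genes, whose columns sum to 1000000. A tolerance of 0.01 found 86.9% of the deposited count values above 0.5 to be whole; all were rounded before testing. GRCm38 is the build named in the submitters' processing notes. The aligner, counter, annotation and use of strand were not given in the sources used here. GENCODE M21 supplied symbols for 48435 identifiers and coordinates on GRCm38, counted from 1.

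Rounded counts were tested by edgeR's quasi-likelihood F-test with TMM factors and filterByExpr, with group as the only term, all 12 libraries in 1 fit and 8 residual degrees of freedom. Adjustment was by Benjamini-Hochberg over all 14704 genes tested, with a call at an adjusted p under 0.05. CPM use the TMM factors, and SEs come from the F statistic. The second passages were compared with the others in the same fit with an added term. Alternatives were DESeq2 size factors, DESeq2, no filter, limma on log2(TPM + 1) and log2(TPM + 0.1), replicate blocks, other sets of samples, and leaving out each library. Leaving out all second passages was chosen after seeing the data. The second passages were compared with the others because they were known to deviate alike. The fit was tested on simulated data. The software was DESeq2 1.42.0, limma 3.58.1 and edgeR 4.0.16 under R 4.3.3.

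The members and lists were chosen with earlier results of these data known. Values are given per library for called members that average 1 CPM or more, and up to 4 genes of each pathway list are named by their adjusted p; Cdh1, Cdh19, Cdh22, Npnt's link to Itga8, Tnc, Tln1, Ptk2 and the members without calls were chosen after their values were seen. Same-numbered libraries of different clones correlated at 0.153 to 0.501 in their deviations from the group means, in all 3 pairs of each 2 clones, so the numbers were taken as pairing the clones. Same-numbered Parental and clone libraries correlated at −0.526 to −0.187 and were not. Parental and clone libraries at the same place in the order of passages correlated at 0.045 to 0.503, above 0.1 in every pair for F5 alone. At the last place they correlated at 0.045 to 0.109, less than Parental passage 8 did with the first clone libraries (0.134 to 0.246). The labels do not pair Parental and clone libraries. Intervals and limits cover counting error only. Protein sequences were not used here.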

Additional observations from a re-analysis of the deposited data

Results flagged for a closer look

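Differences between clones were tested directly. Between F5 and H7, 7 of 28 members were called, against 17.9% of all genes, and between G5 and H7, 9 were, against 17.4%. F5 against H7 gave log2 fold changes of −3.83 for Cdh1, −1.58 for Cdh11, 5.38 for Cdh18, −0.56 for Itgb3, −3.33 for Itgb4, −1.66 for Itgb7 and −0.50 for Itgb8. G5 against H7 gave −4.04 for Cdh1, −1.08 for Cdh11, 4.13 for Cdh18, −2.19 for Itga1, 0.54 for Itga3, 1.87 for Itga9, −3.69 for Itgb4, −1.66 for Itgb7 and −0.60 for Itgb8. Cdh1 was tested only because of its counts in H7, so its calls against H7 follow from the filter on low counts. Calls of Itga1, Itga3 and Cdh11 between G5 and H7, and of Itgb8 between F5 and H7, ended when some single libraries were left out. Both comparisons share the H7 libraries, and each clone is a single clone.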

How the results depend on the processing

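Of 57 called results of single members, 27 held in every alternative run, the 3 of Cdh1 among them, and none was reversed in any; between lines 26 of 48 held. The number of called members moved by more than 1.5 times in some settings. For the mean of the clones it was 9, and 4 with the 9 knockout libraries as 1 group, against 9.22% of all genes. In F5 it was 6, and 3 by limma on log2(TPM + 1), 2 on log2(TPM + 0.1) and 2 with only the 2 lines compared. These settings called 11.5%, 11.6% and 5.39% of all genes in F5. In G5 the number was 7, and 4, 4 and 2 in the same settings, against 11.9%, 12.2% and 4.11% of all genes. Between F5 and G5 it was 0, and 2 by DESeq2, against 0.694% of all genes. Between F5 and H7 it was 7, and 11 with only the 2 lines compared, against 23.2%. For the second passages it was 9, and 4 by limma with either pseudocount, against 21.1% and 21%. The cause was not tested.

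With a replicate block for the passage number, 10 members were called in the mean of the clones, 4 in F5, 7 in G5, 9 in H7, 0 between F5 and G5, 9 between F5 and H7 and 10 between G5 and H7. In that order, the shares of all genes were 15.9%, 12.8%, 12.2%, 16.7%, 0.143%, 17.8% and 17%. That block ended the calls of Itgb3 (adjusted p = 0.0686) and Itgb8 (0.0654) in F5, Itgb4 (0.106) and Itgb8 (0.13) in G5, Cdh19 (0.059) and Itga3 (0.133) in H7 and Itgb7 (0.0617) in the mean. The Parental and clone libraries share only the numbers. A replicate block for first, second or last passage gave 10 called members in F5, against 28.7% of all genes, 11 in G5, against 26.8%, and 13 between F5 and H7, against 31.3%; without it the shares were 14.3%, 13.1% and 17.9%.

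Leaving out 1 library at a time gave 7 to 13 members in the mean of the clones, 4 to 9 in F5, 4 to 9 in G5, 8 to 12 in H7, 0 between F5 and G5, 6 to 13 between F5 and H7, 6 to 10 between G5 and H7 and 2 to 10 for the second passages. In that order, shares of all genes were 14.1% to 18.4%, 8.2% to 14.3%, 7.54% to 13.7% and 12.2% to 18.9% against the Parental line. Between clones they were 0.147% to 0.382%, 11.8% to 24.4% and 11.7% to 23.2%, and for the second passages 15.4% to 29.1%. The 13 between F5 and H7 came without Parental passage 7, and the 4 in G5 without G5 passage 9. Without all second passages the counts were 7 in the mean of the clones, 6 in F5, 6 in G5, 13 in H7, 0 between F5 and G5, 8 between F5 and H7 and 10 between G5 and H7. The shares of all genes were then 14.8%, 12.4%, 11%, 18.8%, 0.163%, 20.7% and 19.3% in the same order. Members under 1 CPM rest on few counts. Cdh1 and Cdh19 passed the filter through 1 line alone, which favours calls against that line, though Cdh19 was not called in F5.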

Other observations

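Members below the filter held few counts, and no test of them is given apart from Cdh22. Itgad, a leukocyte chain, had 2, 3 and 1 counts in F5, G5 and H7, against 24 in the Parental line, 20 of them in passage 7. Itga2, the α2 collagen receptor chain, had 7, 22 and 13 counts in F5, G5 and H7, against 5 in the Parental line. Cdh3, P-cadherin, had 20, 7 and 13 counts, against 3 in the Parental line, and Cdh5, VE-cadherin, 6, 8 and 12, against 3.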
